A study of Homo sapiens with 3 samples.

Results

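The genes described here are the core machinery of macroautophagy and its cargo receptors, a list of 46 human genes chosen by gene name, with earlier results of these data known. On arrays carrying 34041 transcript probes with a value on every array, of which 25705 could be assigned to 19699 named genes, 45 of the 46 genes had at least 1 probe and 65 probes in all. No probe could be matched to the receptor NBR1, so its transcript is not described. The 45 genes comprised 5 of the initiation complex, 6 of the phosphatidylinositol 3-kinase complex, 8 acting in membrane supply and lipid transfer, 11 of the conjugation systems, 6 of the ATG8 family, 6 receptors and 3 regulators that act in the nucleus.

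Total RNA from PANC-1 cells, an established human pancreatic ductal carcinoma line, was hybridised to 1-colour Agilent arrays after treatment with inhibitors of protein phosphatase 2A. The 3 groups were control cells, for which the sources used here name no vehicle, cells given 20 µM cantharidin and cells given 20 µM okadaic acid, the treatments lasting 24 h. Each group was 1 sample of 1 line on 1 array, so no difference below has a replicate check or a p-value, and both comparisons with control rest on the same control array. The title of the series names autophagy among the processes it asks about, in connection with the induction of p21 by these inhibitors.

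Macroautophagy encloses cytoplasm in a double membrane, the autophagosome, which then fuses with the lysosome. The ULK1 kinase complex starts the process, a lipid kinase complex built on PIK3C3 (VPS34) and BECN1 marks the membrane with phosphatidylinositol 3-phosphate, WIPI proteins read that mark, and ATG9 and ATG2 proteins supply lipid. A pair of ubiquitin-like conjugation systems then attaches ATG8 proteins such as LC3 to the membrane, where receptors such as p62 bring in cargo. Much of the pathway is controlled on proteins already present, and transcript levels record neither autophagosome number nor flux. TFEB and TFE3 are the transcription factors best known for inducing genes of autophagy and of the lysosome.

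Values are Agilent processed intensities, and a fold change compares intensities after each was divided by the 75th percentile of its own array, equal to 784 (control), 713 (cantharidin array) and 936 (okadaic acid array). A gene entered a comparison if either array concerned flagged its probe as well above background, and was called higher or lower at 1.5-fold or more. All 45 genes passed that filter in every comparison, and 43 were well above background on all 3 arrays. No spot of the arrays was saturated. The only measure of error was the spread between repeat spots of one probe on one array, whose SD on the log2 scale was 0.06 to 0.09 for intensities of 1000 or more, 0.10 to 0.14 between 100 and 1000, and 0.24 to 0.33 below 100. This spread covers the array and not the culture, the treatment or the RNA preparation. Of the 43 genes represented by a single-spot probe, 11 lay within 2 SDs of spots for cantharidin against control and 5 for okadaic acid against control. Because each array averages many cells, fewer cells expressing a gene and less RNA per cell cannot be told apart. The keratins KRT7, KRT8, KRT18 and KRT19, which mark ductal epithelium, were well above background on every array. All 4 leukocyte markers were also well above background on every array, CD14 reading 2535 in control, 1838 with cantharidin and 11044 with okadaic acid, as were 3 endothelial markers of 3 in control and 2 of 3 after each agent, and 2 fibroblast markers of 3 in control and 1 of 3 after each agent. The part of these markers in the values below was not tested.

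Transcripts of the autophagy machinery were more often higher than lower after either inhibitor. Against control, cantharidin left 21 of 45 genes higher (46.7%) and 6 lower (13.3%), whereas 27.5% of the 16644 named genes compared were higher and 34.1% lower. The median log2 difference was 0.53 over the autophagy genes and -0.16 over all named genes. Okadaic acid left 22 of 45 genes higher (48.9%) and 6 lower (13.3%), beside 28.1% and 28.8% of the 16166 named genes compared. Here the medians were 0.57 for the autophagy genes and 0.01 for all named genes. These medians depended on the scaling, since the all-gene median ranged from -0.30 to -0.09 for cantharidin and from -0.11 to 0.26 for okadaic acid across the scalings tried. Over the 43 genes well above background on all 3 arrays, cantharidin left 21 higher and 4 lower, against 26.1% and 33.0% of all such genes, and okadaic acid left 22 higher and 5 lower, against 28.2% and 27.3%.

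**Figure D1:**
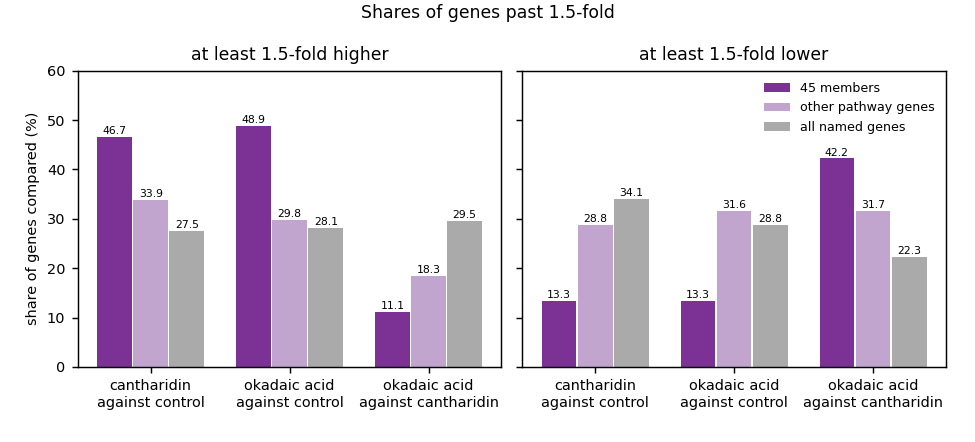
Percent of the 45 autophagy genes (members), of the genes in a surrounding autophagy list described last (other pathway genes) and of all named genes compared that were at least 1.5-fold higher or lower in each comparison, with 1 array per group and no error bars. In both comparisons with control the autophagy genes had a larger share higher (46.7% and 48.9%) and a smaller share lower (13.3% each) than all named genes.

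The upstream sequences of 4 of these genes are shown. WDR45, MAP1LC3B and ATG10 mark ends of the range, and BNIP3 is 1 of 3 genes with CACGTG in a promoter. WDR45 also holds a motif. On representative probes WDR45 was furthest above control with cantharidin and MAP1LC3B with okadaic acid, ATG10 was furthest below control with okadaic acid, and BNIP3 holds the letters CACGTG, the E-box core that TFEB and TFE3 recognise. Each is the 250 bases before a transcription start listed by RefSeq (build GRCh38.p14), written 5′ to 3′ on the gene's strand, with capitals marking CACGTG in BNIP3 and, in WDR45, the letters TGAGTCA, which are the AP-1 motif TGACTCA read on the other strand.
WDR45, chrX:49079888-49080137, minus strand: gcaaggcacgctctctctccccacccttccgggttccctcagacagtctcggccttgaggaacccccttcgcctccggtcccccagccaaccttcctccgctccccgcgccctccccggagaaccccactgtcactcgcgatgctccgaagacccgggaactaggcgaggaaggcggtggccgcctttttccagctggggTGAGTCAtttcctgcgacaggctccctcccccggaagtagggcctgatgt
MAP1LC3B, chr16:87392086-87392335, plus strand: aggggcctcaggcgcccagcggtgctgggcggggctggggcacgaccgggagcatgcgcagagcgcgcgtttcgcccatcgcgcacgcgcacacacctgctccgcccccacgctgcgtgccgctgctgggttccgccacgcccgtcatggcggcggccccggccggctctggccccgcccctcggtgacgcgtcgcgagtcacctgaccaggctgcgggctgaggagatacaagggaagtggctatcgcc
BNIP3, chr10:131981924-131982173, minus strand: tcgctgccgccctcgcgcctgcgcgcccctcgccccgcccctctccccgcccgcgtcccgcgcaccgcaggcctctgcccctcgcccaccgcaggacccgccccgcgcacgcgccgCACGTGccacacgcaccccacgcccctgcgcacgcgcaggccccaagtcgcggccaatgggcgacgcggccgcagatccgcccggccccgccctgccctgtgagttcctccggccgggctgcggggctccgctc
ATG10, chr5:81971773-81972022, plus strand: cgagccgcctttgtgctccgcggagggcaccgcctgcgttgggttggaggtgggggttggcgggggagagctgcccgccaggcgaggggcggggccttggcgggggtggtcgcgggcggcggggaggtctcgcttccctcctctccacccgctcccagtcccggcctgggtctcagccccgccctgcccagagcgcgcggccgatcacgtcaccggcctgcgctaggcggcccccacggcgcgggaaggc
The capitals begin 50 bases before the start in WDR45, for which this is 1 of 2 listed starts, and 134 bases before it in BNIP3. RefSeq promoters, taken as 250 bases before to 50 after a start and searched on both strands, were matched for 40 of the 46 genes and numbered 52. CACGTG was present in 3 of the 52 (ATG3, ATG14 and BNIP3; 5.77%) and in 7.26% of all 35116 promoters. TCACGTGA, which contains CACGTG, was present in 1 of the 52 (ATG3) and in 0.980% of all. TGACTCA was present in 2 of the 52 (TFE3 and WDR45) and in 4.95% of all. The longer palindromic CLEAR element of lysosomal genes, which contains both E-box forms, was in none of the 52 and in 0.353% of all. TGATGCAA, a motif bound by ATF4 with CEBP partners, was in none of the 52 and in 0.866% of all. MAP1LC3B and ATG10 held none of these motifs in the stretches shown.

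On representative probes the initiation complex was higher throughout with cantharidin, although a second ULK2 probe was 1.73-fold lower. All 5 genes passed 1.5-fold against control on representative probes, with a median log2 difference of 1.75. Taking the median over probes left 4 of 5 higher. With okadaic acid 3 of 5 were higher on representative probes, with a median of 0.71 and none lower. Of all named genes 27.5% were higher with cantharidin and 28.1% with okadaic acid. ATG101, which stabilises ATG13 in the complex, read 2854 in control, 18743 with cantharidin and 7024 with okadaic acid. Both treated arrays were above control, by 7.23-fold and 2.06-fold, and the cantharidin array was the highest. ULK1, the kinase that starts autophagy, read 3954, 10381 and 7737 in that order. This was 2.89-fold above control with cantharidin and 1.64-fold with okadaic acid. RB1CC1 (FIP200), the scaffold of the complex, read 509, 1122 and 1378. Its 2 treated arrays stood close together, 2.43-fold and 2.27-fold above control.

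ATG13, the regulatory subunit that ULK1 phosphorylates, separated the agents. It read 377 in control, 1433 with cantharidin and 508 with okadaic acid. Cantharidin was 4.18-fold above control and okadaic acid 1.13-fold, within the threshold. A second ATG13 probe read 152, 305 and 252, where the agents lay closer together at 2.20-fold and 1.39-fold above control. ULK2, the close relative of ULK1, read 501, 1527 and 425 on its brighter probe. That is 3.36-fold higher with cantharidin and 1.41-fold lower with okadaic acid. A second ULK2 probe read 233, 122 and 151, 1.73-fold and 1.84-fold below control, so the direction for ULK2 with cantharidin depended on the probe. The remaining ULK2 probe was close to background throughout and was not compared.

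**Figure D2:**
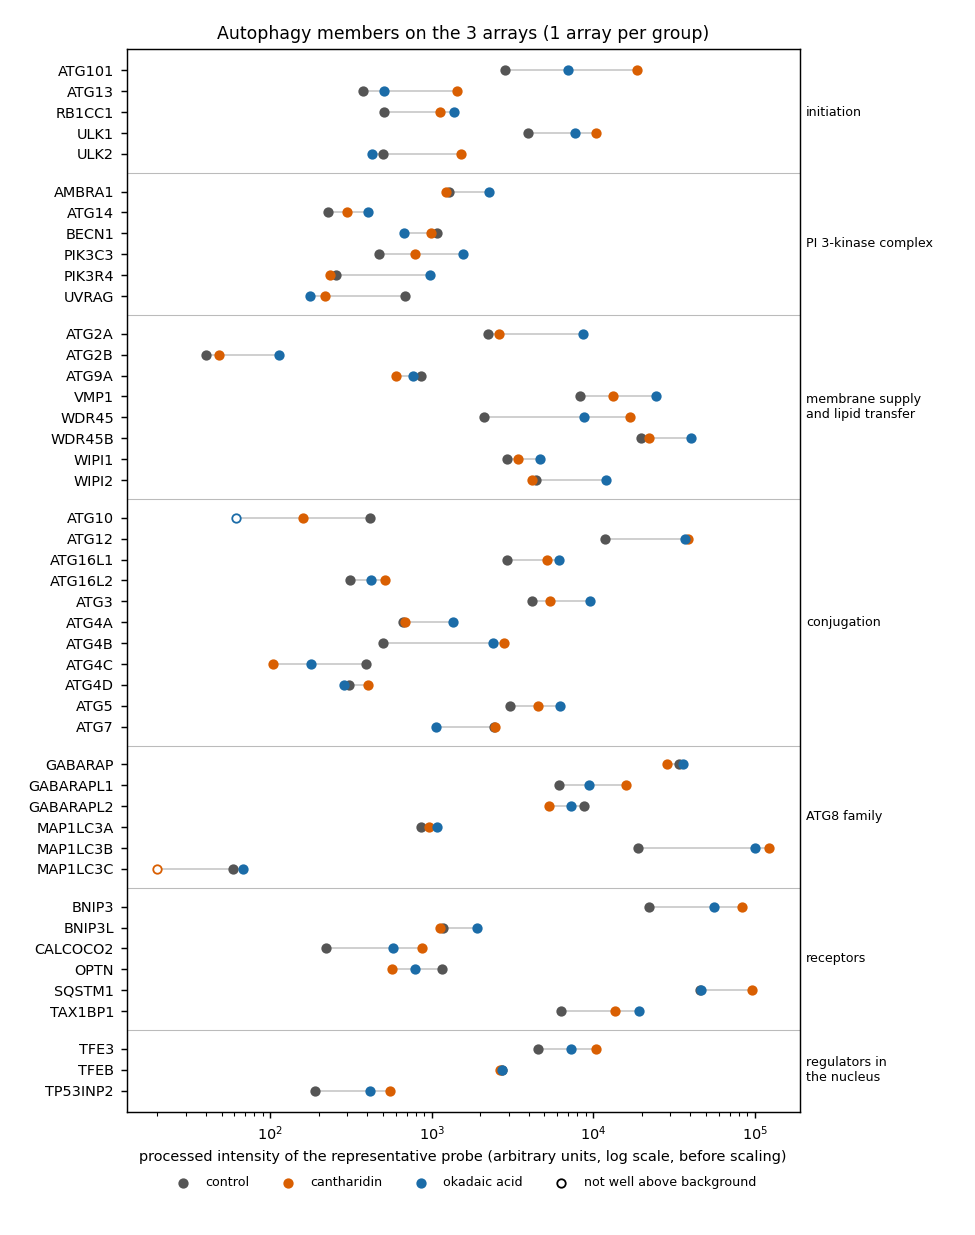
Processed intensity (log10 axis, before scaling) of the representative probe of each of the 45 autophagy genes in control, with cantharidin and with okadaic acid, grouped by role, with open symbols where the probe was not well above background. ATG101, WDR45 and MAP1LC3B show wide gaps above control, and ATG10 and UVRAG show both treated arrays below it.

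The lipid kinase complex moved in both directions. With cantharidin 1 of 6 genes was higher and 1 lower, and with okadaic acid 2 were higher and 2 lower. The cantharidin shares were 16.7% each way, beside 27.5% and 34.1% of all named genes. The okadaic acid shares, 33.3% each way, lay near the 28.1% and 28.8% of all named genes. PIK3C3, the catalytic subunit, read 475 in control, 795 with cantharidin and 1555 with okadaic acid. It was above control by 1.84-fold and 2.74-fold. PIK3R4 (VPS15), its regulatory partner, read 255, 236 and 976. Only the okadaic acid array stood apart, 3.21-fold above control, while cantharidin was at 1.02-fold. BECN1, the scaffold of the complex, read 1084, 986 and 679, which placed okadaic acid 1.91-fold below control and left cantharidin level with control.

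UVRAG, which replaces ATG14 in the endosomal form of the complex, was the furthest below control in this group. It read 688 in control, 218 with cantharidin and 176 with okadaic acid. Both treated arrays were below control, by 2.86-fold and 4.67-fold. ATG14, the subunit that directs the complex to autophagosome formation, and AMBRA1, a BECN1-binding regulator, were within 1.5-fold after both agents. With okadaic acid they sat near the threshold of 1.5-fold, at log2 differences of 0.57 for ATG14 and 0.56 for AMBRA1, and passed it under 2 and 5 of 10 alternative settings, as ATG14 did with cantharidin, at 0.53, under 2 of 10. ATG14 read 229, 301 and 406. AMBRA1 read 1278, 1225 and 2253, and its second probe was well above background only with cantharidin (10.3, 33.7 and 51.3), at least 1.06-fold above control there.

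Of the genes of membrane supply and lipid transfer, 6 of 8 were higher with okadaic acid and 2 of 8 with cantharidin, and none was lower with either. The okadaic acid share was 75%, beside 28.1% of all named genes. The cantharidin share, 25%, lay near the 27.5% of all named genes. Of all named genes 28.8% were lower with okadaic acid and 34.1% with cantharidin. Set directly against cantharidin, okadaic acid left 3 of 8 higher and 1 lower. The median log2 differences of these genes from control were 1.21 with okadaic acid and 0.37 with cantharidin. ATG2A, one of the proteins that carry lipid into the growing membrane, read 2241 in control, 2607 with cantharidin and 8611 with okadaic acid. The okadaic acid array was 3.22-fold above control and cantharidin was at 1.28-fold. A second ATG2A probe read 191, 167 and 559, with log2 differences from control of -0.06 and 1.29. WIPI2, which recruits ATG16L1 to the marked membrane, read 4445, 4185 and 12009. Okadaic acid was 2.26-fold above control and cantharidin was at 1.04-fold, but a second WIPI2 probe read 300, 461 and 533, 1.69-fold above control with cantharidin and 1.49-fold with okadaic acid. ATG2B, the other lipid transfer protein, was dim at 40.0, 48.3 and 114, and its 2.38-fold difference with okadaic acid came to lie within 1.5-fold, at a log2 difference of 0.56, when the background was modelled instead.

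WDR45 (WIPI4), a WIPI family member that binds ATG2, stood furthest above control with cantharidin among the representative probes, although the second MAP1LC3B probe was further above it. It read 2113 in control, 16965 with cantharidin and 8843 with okadaic acid. It was higher on both treated arrays, by 8.84-fold and 3.51-fold. Its paralogue WDR45B (WIPI3) read 19849, 22298 and 40578, 1.24-fold and 1.71-fold above control. VMP1, an endoplasmic reticulum scramblase, read 8323, 13261 and 24629. It stood above control on both treated arrays, by 1.75-fold and 2.48-fold. WIPI1 (2914, 3431 and 4706) and ATG9A (858, 599 and 770), the membrane protein carried on ATG9 vesicles, were within 1.5-fold after both agents.

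The conjugation genes split by protein. With cantharidin 5 of 11 were higher (45.5%) and 2 lower (18.2%), beside 27.5% and 34.1% of all named genes. With okadaic acid 6 were higher (54.5%) and 3 lower (27.3%), beside 28.1% and 28.8%. ATG4B, the main protease that trims ATG8 proteins before conjugation and releases them afterwards, read 500 in control, 2818 with cantharidin and 2390 with okadaic acid. It was 6.20-fold and 4.004-fold above control, and its second probe gave 3.70-fold and 2.78-fold. ATG4C, another protease of that family, ran the other way at 392, 104 and 179. It was below control by 3.42-fold and 2.61-fold, and its 3 probes were all lower with both agents. ATG4A read 665, 686 and 1347, 1.70-fold above control with okadaic acid and at 1.13-fold with cantharidin. ATG4D was within 1.5-fold after both. On its 10 repeat spots it ran from 296 to 316 in control, from 375 to 427 with cantharidin and from 266 to 303 with okadaic acid. Divided by the 75th percentile of the array, these ranges became 0.377 to 0.403, 0.527 to 0.599 and 0.284 to 0.323, and no pair of arrays overlapped. Before this division control and okadaic acid overlapped, so their separation depended on the scaling. Repeat spots cover the array and not the culture or the treatment.

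ATG12, the ubiquitin-like protein that is joined to ATG5, was higher with both agents. It read 11873 in control, 38652 with cantharidin and 37147 with okadaic acid, above control by 3.58-fold and 2.62-fold. ATG10, the E2-like enzyme that makes that join, was the furthest below control with okadaic acid among the representative probes. Its intensities were 415, 159 and 61.7, the last not well above background. Cantharidin was 2.37-fold lower, and okadaic acid was at least 8.03-fold lower, a bound taken from the dim signal or the weakest signal well above background on that array. With the background modelled instead (normexp), the okadaic acid log2 difference was -1.81, smaller than that bound. A second ATG10 probe read 132, 25.0 and 40.0, well above background only in control. By the same rule it was at least 4.79-fold lower with cantharidin and at least 2.70-fold lower with okadaic acid. The cantharidin value takes the dim signal of 25.0 itself, so it is not a strict limit. Values for this probe with the background modelled are not given here. ATG7, the E1-like enzyme of both systems, read 2439, 2466 and 1068. Cantharidin was at 1.11-fold of control, and okadaic acid was 2.73-fold lower. A second ATG7 probe read 229, 144 and 153, with log2 differences from control of -0.53 and -0.84. ATG3, the E2-like enzyme for ATG8 proteins, read 4169, 5435 and 9522, which placed okadaic acid 1.91-fold above control and cantharidin at 1.43-fold.

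ATG5 and the ATG16L proteins form the complex that finishes LC3 attachment. ATG5 was measured on repeat spots, of which 8 in control, 9 with cantharidin and 9 with okadaic acid carried no outlier flag. Those spots ran from 2959 to 3218, from 4274 to 4886 and from 6065 to 6427. Divided by the 75th percentile of the array, they ran from 3.77 to 4.10 in control, from 5.998 to 6.86 with cantharidin and from 6.48 to 6.87 with okadaic acid. After this scaling both treated arrays lay apart from control, by 1.63-fold and 1.71-fold, and overlapped each other. A second ATG5 probe read 572, 249 and 381, 2.09-fold and 1.79-fold below control, so ATG5 passed the threshold in opposite directions on its 2 probes under both agents. ATG16L1 read 2950, 5198 and 6124, above control by 1.94-fold and 1.74-fold. Its second probe read 267, 339 and 387 and was within 1.5-fold after both agents, at 1.40-fold and 1.21-fold, and the median over its probes, 0.54 on the log2 scale, ended the okadaic acid call. ATG16L2, its less studied relative, read 314, 517 and 422, 1.81-fold above control with cantharidin and at 1.13-fold with okadaic acid.

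The ATG8 family, whose members are attached to the autophagosome membrane, moved in both directions with cantharidin. Cantharidin left 2 of 6 higher and 2 lower, and okadaic acid left 1 higher and none lower. The cantharidin shares, 33.3% each way, lay near the 27.5% and 34.1% of all named genes. With okadaic acid 16.7% were higher, beside 28.1% of all named genes, of which 28.8% were lower. MAP1LC3B (LC3B), the usual marker protein of autophagosomes, read 19079 in control, 122662 with cantharidin and 100693 with okadaic acid. Both treated arrays were above control, by 7.08-fold and 4.42-fold, and a second probe reading 2884, 24639 and 9477 gave 9.40-fold and 2.75-fold. The near-identical gene MAP1LC3B2 had no matched probe, and binding of its transcript to these probes was not tested. GABARAPL1, a family member of the GABARAP branch, read 6119, 15973 and 9490. It was 2.87-fold above control with cantharidin and at 1.30-fold with okadaic acid.

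The other ATG8 genes were lower or within the threshold. GABARAPL2 read 8838 in control, 5333 with cantharidin and 7273 with okadaic acid. It sat at the threshold, 1.51-fold lower with cantharidin and 1.45-fold lower with okadaic acid. MAP1LC3C read 59.2, 20.0 and 68.3, and the cantharidin reading was not well above background. Cantharidin was thus at least 2.46-fold lower than control, while okadaic acid was 1.03-fold lower. With the background modelled instead, the cantharidin log2 difference was -0.43, within 1.5-fold and smaller than that bound. GABARAP, within 1.5-fold after both agents, read 34045, 28803 and 36284, as was MAP1LC3A at 855, 964 and 1077.

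Of the receptors, which tie cargo to ATG8 proteins, 4 of 6 were higher with cantharidin and 3 with okadaic acid, and 1 was lower with each. The shares higher were 66.7% and 50%, beside 27.5% and 28.1% of all named genes. The share lower was 16.7% with each, beside 34.1% and 28.8%. The median log2 differences were 1.22 and 0.77. SQSTM1 (p62), the receptor for ubiquitinated cargo, read 45850 in control, 95793 with cantharidin and 46620 with okadaic acid. Only the cantharidin array stood apart, 2.30-fold above control, with okadaic acid 1.17-fold lower after scaling. CALCOCO2 (NDP52), a receptor for bacteria and damaged mitochondria, read 220, 875 and 577. It was 4.37-fold and 2.19-fold above control. TAX1BP1, its relative, read 6367, 13666 and 19308, above control by 2.36-fold and 2.54-fold. OPTN (optineurin), another receptor used in mitophagy, was lower after both agents. It read 1166, 572 and 788, which is 1.85-fold and 1.77-fold below control.

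BNIP3, a hypoxia-inducible receptor on the outer mitochondrial membrane, read 22106 in control, 83601 with cantharidin and 56241 with okadaic acid. It was higher on both treated arrays, by 4.16-fold and 2.13-fold. BNIP3L (NIX), its paralogue, gave opposite pictures on its 2 probes. The representative probe read 1171, 1127 and 1904, at 1.06-fold and 1.36-fold of control. The other read 3217, 775 and 971, which is 3.77-fold and 3.96-fold lower. BNIP3L was counted on its representative probe, as within 1.5-fold. The median over both probes called it lower with both agents, at log2 differences of -0.92 and -0.77.

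Among the regulators in the nucleus, 2 of 3 were higher with cantharidin and 1 with okadaic acid, beside 27.5% and 28.1% of all named genes. TP53INP2 (DOR), a nuclear cofactor that moves to autophagosomes and binds ATG8 proteins, read 189 in control, 556 with cantharidin and 418 with okadaic acid. It was above control by 3.23-fold and 1.85-fold. TFE3 read 4558, 10374 and 7268 on its representative probe, 2.51-fold and 1.34-fold above control. Its second probe read 2648, 2305 and 2240, 1.04-fold and 1.41-fold lower, so TFE3 passed the threshold on only 1 of 2 probes. TFEB was level, reading 2712, 2661 and 2741, and its second probe read 1360, 1176 and 2126 and was also within 1.5-fold.

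**Figure D3:**
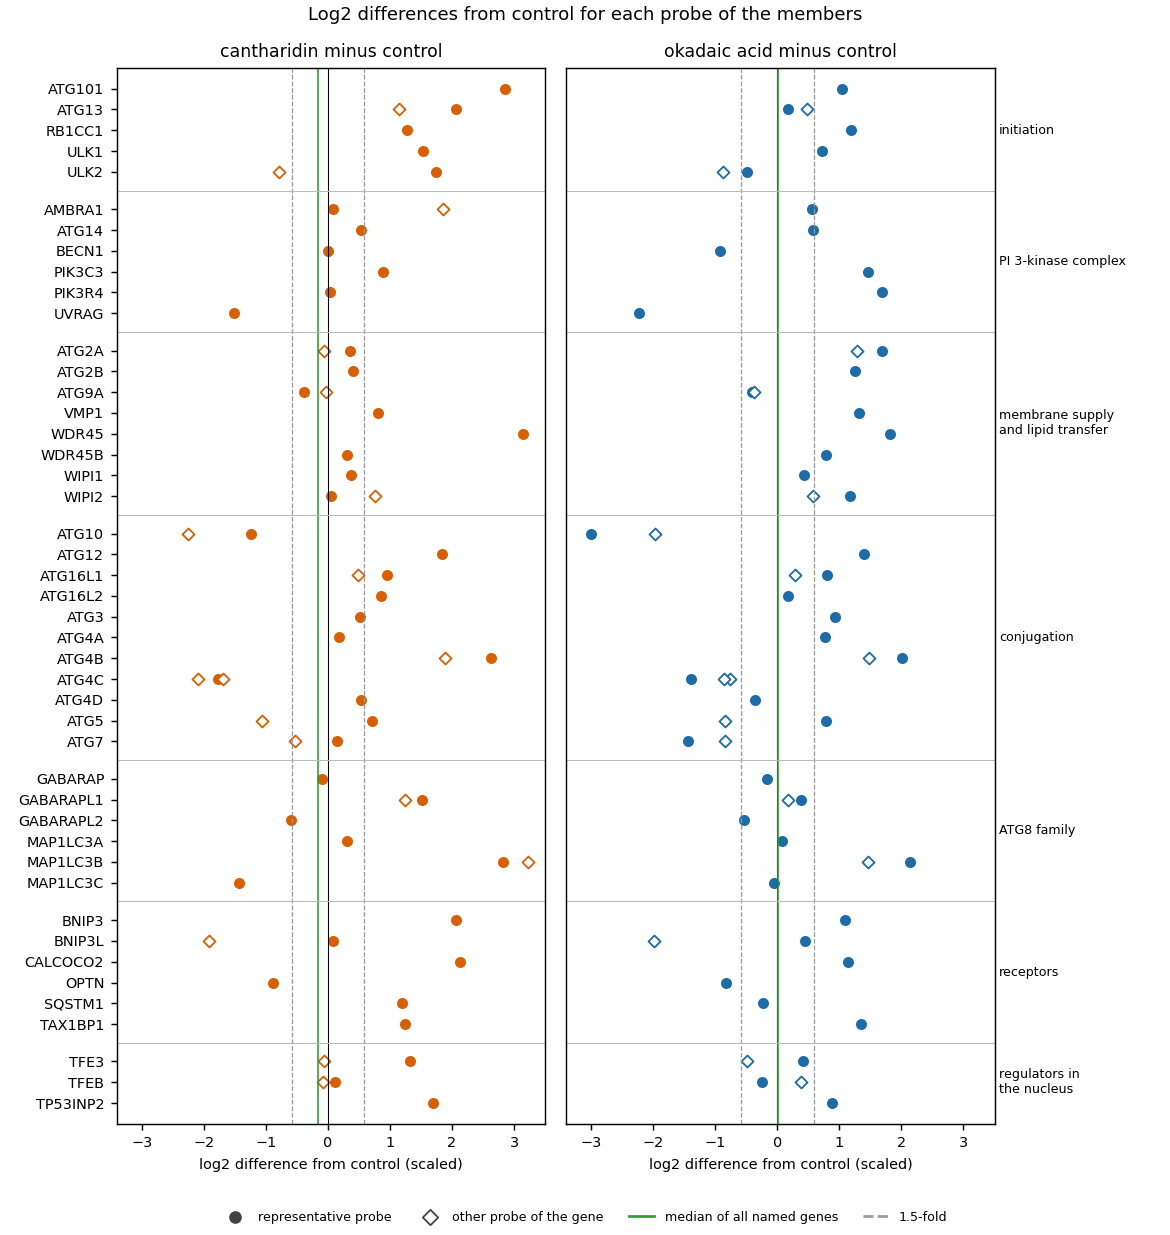
Log2 difference from control of every compared probe of the autophagy genes for cantharidin (left) and okadaic acid (right), by role, with filled circles for the representative probe, open diamonds for other probes, dashed lines at 1.5-fold and a green line at the median of all named genes. Circles and diamonds lie past 1.5-fold in opposite directions for ATG5 in both panels and for ULK2 with cantharidin. Other genes, such as BNIP3L and TFE3, also have probes on opposite sides of 0. The ATG10 circle for okadaic acid and the MAP1LC3C circle for cantharidin rest on a signal not well above background.

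Probes of one gene often gave different sizes. For cantharidin against control, 17 genes had several compared probes, of which 7 differed in sign between probes, 10 had probes more than 1.5-fold apart, and 2 (ATG5 and ULK2) passed 1.5-fold in both directions. For okadaic acid against control, 16 genes had several compared probes, with 4 differing in sign, 9 more than 1.5-fold apart and 1 (ATG5) past the threshold both ways. The median spread between probes of a gene was 0.70 and 0.61 on the log2 scale. The transcript forms these probes detect were not analysed here. Counted by probe and not by gene, the number lower became 12 for cantharidin and 13 for okadaic acid, in place of 6 and 6. These counts run over up to 65 probes in place of 45 genes, and the number higher rose as well. They are not set beside a share over all probes.

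Set directly against each other at the same dose and time, okadaic acid left 5 of the 45 genes higher than cantharidin (11.1%) and 19 lower (42.2%), where 29.5% of the 16200 named genes compared were higher and 22.3% lower. The medians were -0.16 for the autophagy genes and 0.13 for all named genes. This split depended on the scaling: without any scaling 13 were higher and 9 lower, with a median of 0.24, and the all-gene median moved between -0.02 and 0.52 across scalings. Over the 43 genes well above background on all 3 arrays, 4 were higher and 18 lower, against 30.3% and 20.0% of all such genes. Of the 43 genes with a single-spot probe, 10 were within 2 SDs of spots.

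By role, the initiation complex lay lower with okadaic acid, with 4 of 5 genes below cantharidin, none above and a median log2 difference of -1.81. On their representative probes ULK2 was at -2.24, ATG13 at -1.89 and ATG101 at -1.81, while the second probe of ULK2 was at -0.09 and that of ATG13 at -0.67. On representative probes 5 of 11 conjugation genes were lower and none higher. ATG7 was at -1.60, but its second probe was at -0.31, within 1.5-fold. ATG10 was at least 3.39-fold lower, from a dim okadaic acid signal. Modelling the background took its log2 difference to -0.94, smaller than that bound. ATG4C was at 0.39 on its representative probe. Its other probes were at 0.92 and 1.24, past the threshold, the latter from a dim cantharidin signal. SQSTM1 (-1.43), CALCOCO2 (-0.99) and BNIP3 (-0.97) were the 3 of 6 receptors that were lower. Of the lipid transfer genes 3 of 8 were higher (37.5%) and 1 lower (12.5%), not far from the 29.5% and 22.3% of all named genes. ATG2A stood at 1.33, WIPI2 at 1.13 and ATG2B at 0.84, while WDR45 was at -1.33. The second WIPI2 probe was at -0.18, the median over both probes of 0.47 ended the WIPI2 call, and modelling the background took ATG2B to 0.39, within 1.5-fold. PIK3R4 stood highest with okadaic acid relative to cantharidin, at 1.65, and MAP1LC3C was at least 2.38-fold higher, although modelling the background reduced its log2 difference to 0.32 and ended the call.

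**Figure D4:**
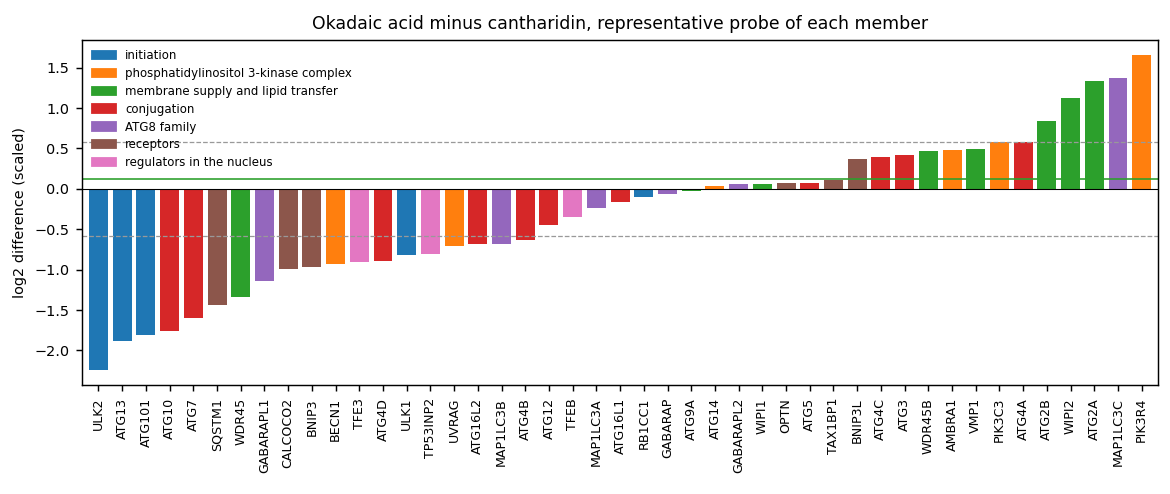
Log2 difference between the okadaic acid and cantharidin arrays for the representative probe of each of the 45 autophagy genes, ordered by size and coloured by role, with dashed lines at 1.5-fold and a green line at the median of all named genes (0.13). Initiation genes (ULK2, ATG13, ATG101) lie at the low end. ATG2A, WIPI2, ATG2B and PIK3R4 lie at the high end, while the lipid transfer gene WDR45 lies toward the low end. The bars of ATG10 and MAP1LC3C each rest on a signal not well above background.

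Genes around the core pathway, which act in fusion, as further cargo receptors, in phosphoinositide and nutrient control and in transcription, were described from a separate list. Of 65 listed, 61 had a matched probe. Cantharidin left 20 of 59 compared genes higher (33.9%) and 17 lower (28.8%), with a median log2 difference of -0.11, beside 27.5%, 34.1% and -0.16 for all named genes. Okadaic acid left 17 of 57 higher (29.8%) and 18 lower (31.6%), with a median of 0.06, beside 28.1%, 28.8% and 0.01. These shares lay near those of all named genes. Between the agents, 11 of 60 were higher with okadaic acid (18.3%) and 19 lower (31.7%), with a median of -0.29, beside 29.5%, 22.3% and 0.13 for all named genes, a split that became 10 and 28 with median scaling and 17 and 12 without scaling.

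The genes named next were well above background on both arrays compared. Furthest above control was SESN2 (Sestrin2), a stress-induced inhibitor of mTORC1, which read 488 in control, 9557 with cantharidin and 3148 with okadaic acid. Its log2 differences from control were 4.43 and 2.43. PLEKHM1, an adaptor for fusion with lysosomes, followed at 3.43 and 2.09, although its 3 probes ran from 0.28 to 3.55 with cantharidin and from -0.14 to 3.75 with okadaic acid. TMEM41B, a scramblase that works with VMP1, was at 3.34 and 2.01. RUBCN (Rubicon), an inhibitor of autophagosome maturation, was at 2.79 with cantharidin on 1 probe and at -0.13 on the other. EPG5, a tethering factor for fusion, was at 2.05 with okadaic acid on 1 probe and at -0.02 on the other. On the lower side FUNDC1, a mitophagy receptor, had log2 differences of -2.85 with cantharidin and -2.27 with okadaic acid, and DRAM2, a lysosomal membrane protein, of -1.48 and -2.00. DEPTOR, an mTOR inhibitor, was at -2.56 with cantharidin. RPTOR (Raptor), the defining subunit of mTORC1, was at -2.29 with cantharidin and at 0.62 with okadaic acid. RRAGD, a GTPase that brings mTORC1 to lysosomes, and STBD1, a glycogen receptor, were at -1.68 and -1.67 with okadaic acid.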

How the data were processed

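RNA of 3 PANC-1 samples, 1 per group, was measured on 1-colour (Cy3) Agilent arrays. The deposited scanner files hold, per the file headers, processed intensities made by Feature Extraction 11.0.1.1, which subtracts background from each spot. A deposited table of log2 values normalized by the authors, by a method not given in the sources used here, served as an alternative.

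Spots flagged as outliers were left out, log2 intensities were averaged over the spots of a probe, and the 75th percentile of each array was subtracted, giving 34041 of 34127 transcript probes. Probes were named through RefSeq accessions without version in an NCBI gene table (GRCh38.p14), from which no coordinates were taken for probes. A gene was represented by its probe of highest mean log2 value over the 3 arrays, and compared if either array flagged that probe as well above background. With 1 array per group there was no test, and genes were called at 1.5-fold. A probe dim on 1 side was given a bound, at least N-fold, against the higher of its own signal and the lowest signal well above background on that array. Genes called in either comparison with control, and genes whose probes disagreed in direction, were named with their intensities, and in the surrounding list at most 4 genes per agent and direction. The members and lists were chosen with earlier results of these data known. The 12 alternatives covered background, scaling, filter, threshold and choice of probe. Calling was tested on simulated data. Python 3.11.15, pandas 2.3.3, R 4.3.3 and limma 3.58.1 were used.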

Additional observations from a re-analysis of the deposited data

How the results depend on the processing

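Under 12 alternatives, 162 recomputed summary values stayed within the tolerance (1.5 times for counts, the spot SD for log2 differences) and 15 moved. Of the values of single genes 1095 stayed, 247 moved and 2 reversed. Counting up to 65 probes in place of 45 genes gave 12 autophagy probes lower with cantharidin and 13 with okadaic acid. It gave 8 higher with okadaic acid than with cantharidin. Without scaling, the median of the autophagy genes was 0.82 for okadaic acid against control and 0.24 against cantharidin, where 13 were higher and 9 lower. In that direct comparison a 2-fold threshold left 8 lower, and normexp background correction left 3 higher. For the surrounding pathway list, a 2-fold threshold left 9 lower with cantharidin, 10 higher with okadaic acid and 12 lower with okadaic acid than with cantharidin, where no scaling gave 17 higher and 12 lower and counting probes gave 17 higher. None of these counts is set beside a share of all named genes at the same setting. They show how the number called moved, not whether it differed from that of all genes. Taking the median over probes, ATG5 reversed to -0.18 with cantharidin and -0.032 with okadaic acid. Among up to 10 alternatives per gene that kept the 1.5-fold threshold, at least 1 ended the call of 4 of 27 genes called for cantharidin, 5 of 28 for okadaic acid and 13 of 24 between the agents, and at least 1 called 6 of 18, 8 of 17 and 9 of 21 genes that were not. The cause was not tested. No paired analysis was possible because each group had 1 array, and for the same reason no array could be left out. Below intensities of about 100 the spot SD limits what can be told.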
